A study of Sorghum bicolor with 12 samples.

Results

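Leaves of sorghum seedlings that had gone 3 days without water (drought) were compared with leaves of watered seedlings of the same age (control). The plants were Sorghum bicolor of the R16 variety, watered normally until 14 days after sowing. Each group had 3 arrays, and every array carried RNA from the youngest leaves of a pool of plants, so the spread between arrays is a spread between pools and no single plant was measured. Plants of both groups were held for 3 h in the dark at 28°C before sampling. The other arrays of the series carried leaves held at 50°C for those 3 h, either from watered plants (heat) or from plants also kept 3 days without water (combined). A drought array and the control array with the same replicate number lay on the same slide and were compared as a pair. All transcripts were followed whose spots were well above background, by the scanner software's own flag, on all 3 arrays of drought or all 3 arrays of control. They numbered 21710 of the 28587 transcripts on the array (75.9%), and 21705 of them had a value on all 6 arrays and were tested.

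When soil dries, plant leaves accumulate the hormone abscisic acid (ABA). In Arabidopsis, ABA bound to its receptor holds back a group of type 2C protein phosphatases (PP2Cs), which frees protein kinases such as OST1 to act on the ion channels that close stomata and on bZIP transcription factors that bind ABA-responsive promoters. Late embryogenesis abundant (LEA) proteins and dehydrins, known from drying seeds, and compatible solutes such as proline and raffinose-family sugars are classic products of that response. Names used below are the best Arabidopsis matches that accompanied the study's transcript identifiers, so the roles given are those known from Arabidopsis unless another plant is named.

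Between 76.6% and 81.3% of spots were well above background on the drought arrays, and between 76.7% and 84.1% on the control arrays, with no saturated spot. The median raw signal was 448 to 512 on drought arrays and 413 to 542 on control arrays. Values for single transcripts are given as scaled signal, on which the 75th percentile of each array is 100, and the precision is limited by the number of arrays. Of the leaf markers, Rubisco small subunit (RBCS1A), the photosystem proteins PSBR and LHCB6, the phosphoenolpyruvate carboxylase ATPPC3, Rubisco activase (RCA) and pyruvate orthophosphate dikinase (PPDK) were well above background on all 6 arrays. ELIP1, an early light-inducible protein, was so on all 3 drought arrays and 1 control array. Among the others named here, PPDK had the lowest signal on each of the 6 arrays and RCA the next lowest. In such pooled tissue, fewer cells of a type and less RNA per cell cannot be told apart.

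Drought changed 2271 transcripts (10.5% of those tested) at an adjusted p under 0.05 from limma and more than 2-fold in the fitted mean (log2 ratio beyond 1). Of these, 1557 were higher (7.17%) and 714 were lower (3.29%). Adjusted p alone, with no minimum ratio, passed 1781 higher and 997 lower transcripts. The rises were also the larger changes. Their median log2 ratio was 1.93, or 3.80-fold, 724 of them lay beyond a log2 ratio of 2, 190 beyond 4, 78 beyond 6 and 21 beyond 8. The falls had a median log2 ratio of -1.42, or 2.67-fold lower, with 113 beyond a log2 ratio of 2 and none beyond 4. Many transcripts that rose were near or below detection in watered leaves: 85 of the 1557 were well above background on none of the 3 control arrays, and a further 78 and 68 on only 1 and 2 of them. A transcript well above background is called detected below. A simpler criterion, more than 2-fold in the same direction in all 3 pairs, passed 967 higher (4.46%) and 216 lower transcripts (0.995%), of which 928 and 157 were among those that passed limma.

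The size of the response differed between the pairs. Among the 1557 rises the median log2 ratio was 1.94 in pair 1, 1.21 in pair 2 and 2.64 in pair 3, and among the 714 falls it was -1.19, -0.80 and -2.29. Pair 2 gave the smallest ratio for 1330 rises and 603 falls, whereas pair 3 gave the largest for 1329 rises and 679 falls. The same sign in the 3 pairs was seen for 1556 of the 1557 rises and all 714 falls. Being called on these same pairs largely ensured this, so it is no separate evidence of a shared direction. Over the 21705 transcripts the pairs' log2 ratios correlated with r of 0.80, 0.87 and 0.75, a description across transcripts that share arrays and slides. The drought arrays also varied more among themselves, with a median SD of 0.37 on the log2 scale, than the control arrays, with 0.25. These differences bear on the counts. Leaving out pair 1 left 405 rises and 18 falls, leaving out pair 3 left 548 and 40, and leaving out pair 2 gave 1883 and 1293.

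**Figure D1:**
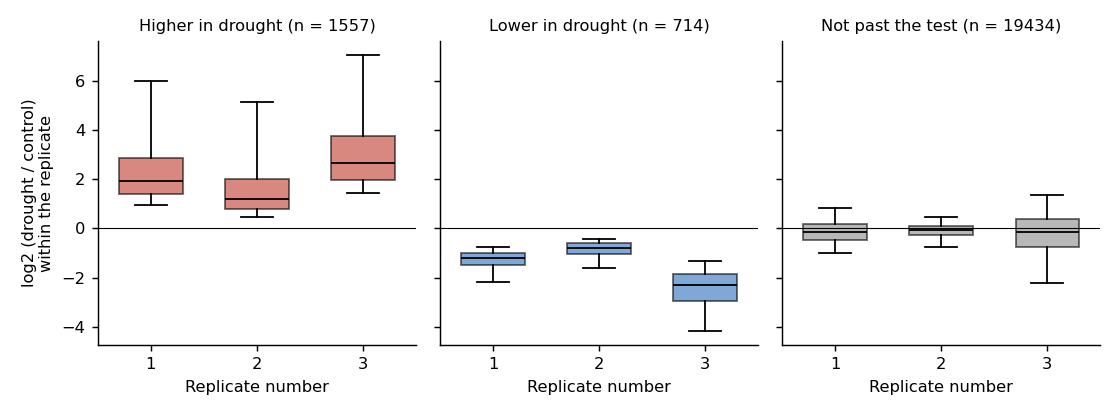
Log2 ratio of drought over control within each replicate number (x axis) for transcripts higher in drought, lower in drought and not past the test; boxes span the quartiles around the median, and whiskers leave out the outermost 5% at each end. Medians lie at 1.94, 1.21 and 2.64 for the rises and at -1.19, -0.80 and -2.29 for the falls, so pair 2 has the narrowest response and pair 3 the widest.

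Transcripts for ABA synthesis and for its breakdown rose together. NCED3 (Sb01g013520.1) encodes 9-cis-epoxycarotenoid dioxygenase, the rate-limiting step of ABA synthesis. Its scaled signal was 24.2, 10.6 and 39.9 in drought 1, 2 and 3, against 1.15, 0.822 and 0.921 in control 1, 2 and 3. All drought arrays lay above all control arrays, of which only 1 was well above background, and the log2 ratio was 4.51 ± 0.88 (SD of 3 pairs, adjusted p = 0.00033). ABA4 (Sb03g007320.1), which acts upstream in neoxanthin formation, was bright in both groups, with 1400.1, 866 and 2105 in drought and 202, 241 and 304 in control, a 5.57-fold rise (log2 2.48 ± 0.55, adjusted p = 0.0011). ABA2 (Sb06g009610.1), the short-chain dehydrogenase of a later step, did not pass the test, with 9.73, 4.15 and 4.55 in drought against 7.89, 8.88 and 8.78 in control (log2 -0.58 ± 0.77, adjusted p = 0.36). The ABA 8'-hydroxylases, which break ABA down, were called higher as well: CYP707A4 (Sb02g026600.1) by 5.63-fold (adjusted p = 0.037) and CYP707A1 (Sb04g030660.1) by 2.59-fold (adjusted p = 0.009). CYP707A1 had 20.6, 12.0 and 41.4 in drought and 9.21, 5.01 and 12.8 in control, so the groups overlapped although each pair was higher in drought. In all, 4 of the 5 synthesis and breakdown transcripts rose. Only 2 of these calls held without replicate 1 or without replicate 3: NCED3 and ABA4 kept theirs, while CYP707A4 and CYP707A1 had adjusted p of 0.172 and 0.0938 without replicate 1 and 0.132 and 0.0855 without replicate 3.

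**Figure D2:**
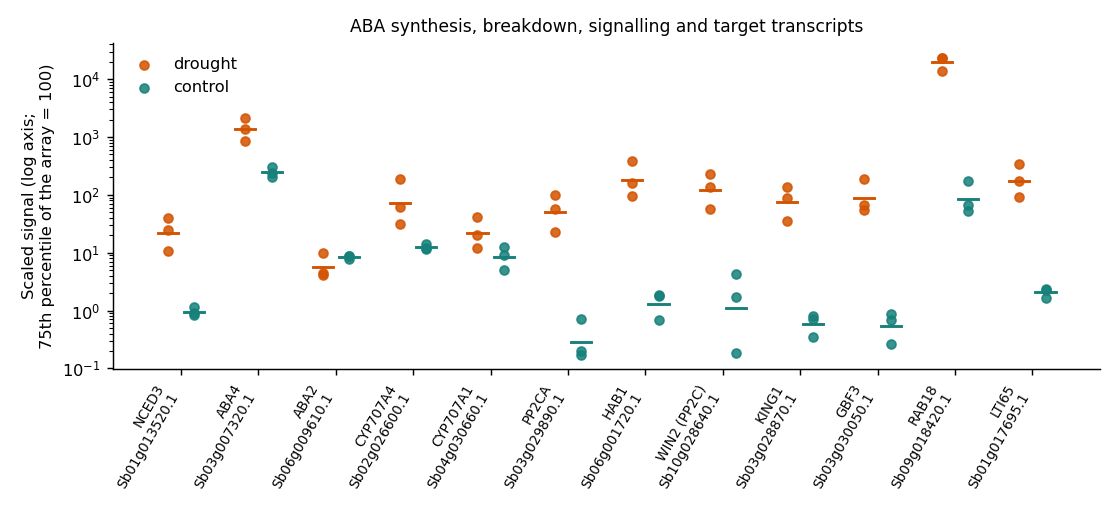
Scaled signal (log axis, 75th percentile of each array = 100) of transcripts from the lists for ABA synthesis, breakdown, signalling and targets on the 3 drought arrays, left, and the 3 control arrays, right, with a bar at the geometric mean. The drought points stand clear of the control points for all but ABA2, which did not pass the test, and CYP707A1, whose groups overlap.

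Type 2C phosphatases were among the strongest rises. Of 17 transcripts tested in the list of ABA receptors, phosphatases and kinases, 14 rose and none fell, with a median log2 ratio of 3.54 where the median of all transcripts was -0.11. Of all transcripts tested 7.17% rose and 3.29% fell, the shares to set beside each list count here and below. None of the 17 carried the annotation of an ABA receptor. Some were named only as putative PP2Cs, and the names KING1 and WIN2 give no ABA role, so such a role is not shown for every member. The list was drawn from annotations that came largely with transcripts the study had picked for their change in these same drought arrays, so here and in the lists below a high count is not independent evidence. Its 3 members known only through the heat comparison, which used the same control arrays, did not pass. Here and below, such members were absent from the study's drought transcripts, which it picked by more than 2-fold in all 3 replicates. A low count of calls among them was thus partly set in advance and is no outside check. Of all 1485 tested transcripts so known, 89 rose and 94 fell. PP2CA (Sb03g029890.1) had 56.6, 22.9 and 99.1 in drought, while no control array detected it, which makes it at least 67.6-fold higher (adjusted p = 1.4e-05). HAB1 (Sb06g001720.1), a close relative of ABI1, had 158, 94.2 and 379.7 in drought against 1.89, 0.682 and 1.79 in control, a log2 ratio of 7.07 ± 0.67 (adjusted p = 1.1e-05), and control was detected on 2 arrays. KING1 (Sb03g028870.1), a regulatory subunit of an SNF1-related kinase, and the PP2C annotated WIN2 (Sb10g028640.1) had log2 ratios of 7.01 and 6.76, and each was well above background on 2 control arrays. OST1 (Sb01g028760.1), the kinase that the phosphatases hold in check in guard cells, had 281, 83.7 and 254 in drought against 22.3, 10.1 and 12.5 in control, a 12.8-fold rise (adjusted p = 0.0018). Phosphatases and kinase thus rose in the same leaves, with no overlap between the groups for OST1, HAB1 or PP2CA. The 14 rises became 13 without replicate 1 or without replicate 3.

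Downstream of these, 12 of 16 tested ABA-linked factors and targets rose and none fell (median log2 3.02). RAB18 (Sb09g018420.1), a dehydrin induced by ABA, had scaled signals of 23543, 14003 and 23713 in drought against 52.2, 67.1 and 173 in control, a log2 ratio of 7.88 ± 0.87 (adjusted p = 5.2e-06). It was well above background on all 3 control arrays, and the groups did not overlap. GBF3 (Sb03g030050.1), a bZIP factor that binds the G-box, had 67.9, 55.5 and 185 in drought and was at least 110.2-fold higher (adjusted p = 2.2e-06), since no control array was well above background. ABF2 (Sb04g034190.1), a bZIP factor that binds ABA-responsive elements, had 577, 325 and 864 in drought against 73.6, 52.9 and 53.2 in control, a 9.21-fold rise (adjusted p = 0.00036). LTI65 (Sb01g017695.1), also known as RD29B, rose 84.7-fold (adjusted p = 5.8e-05), and the HVA22 homologue ATHVA22E (Sb07g022730.1) was at least 17.1-fold higher (adjusted p = 3.2e-05). None of the 4 members known only through the heat comparison passed the test, and 1 of the 16 was called lower without replicate 2.

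LEA proteins and dehydrins, hydrophilic proteins that accumulate in drying tissue, had the highest median of the lists with more than 4 members. Of 22 tested, 19 rose and none fell, with a median log2 ratio of 5.74, or 4.83 with 7 undetected-in-control members set at their lower bounds. The LEA transcript Sb01g046490.1 had 406, 136 and 725 in drought and no detected signal in control, a rise of at least 459-fold (adjusted p = 1.6e-05). ATECP63 (Sb03g011090.1), the embryonic cell protein of 63 kDa, had 1225, 649 and 2184 in drought against 1.92, 1.72 and 3.10 in control, a log2 ratio of 9.11 ± 0.49 (adjusted p = 2.2e-06). Sb09g027110.1, another LEA transcript, had 1289, 692 and 5497 in drought against 1.98, 1.78 and 4.23 in control (log2 9.43 ± 0.87, adjusted p = 1.4e-05). In each of these, drought 2 was the lowest of the drought arrays and still far above every control array. The unannotated second transcript of that gene, Sb09g027110.2, followed it closely at 1196, 634 and 5437 in drought and 1.57, 1.77 and 3.66 in control, as gene models with more than 1 named transcript generally did: in 86 such genes the median range between their transcripts was 0.046 on the log2 scale and none had calls in opposite directions. Another LEA domain transcript, Sb04g009130.1, was at least 55.7-fold higher (adjusted p = 0.00013). Of the 3 LEA transcripts known only through the heat comparison none passed. The 19 rises became 17 without replicate 1 or without replicate 3.

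Transcripts otherwise typical of seeds were detected in the droughted leaves. All 4 seed markers found by annotation rose, although all 4 names came with transcripts picked for their drought response. OLEO1 (Sb01g050670.1), an oil-body oleosin, had 93.0, 79.3 and 222 in drought and was detected on none of the control arrays, at least 155-fold higher (adjusted p = 6.2e-06). PAP85 (Sb01g012640.1), a vicilin-like storage protein, had 197, 21.7 and 348 in drought and was likewise undetected in control, at least 143-fold higher (adjusted p = 3.2e-05). BETA-TIP (Sb06g023240.1), a tonoplast aquaporin of seeds, rose 9.97-fold (adjusted p = 0.00031, detected on 2 control arrays) and the glycine-rich oleosin Sb10g017780.1 rose 4.87-fold (adjusted p = 0.025). The last of these calls was lost without replicate 1 (adjusted p = 0.135) and without replicate 3 (adjusted p = 0.0804).

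Some of the largest fitted ratios belonged to transcripts with no known function, against control signals that were in part not detected. Sb01g046000.1, with no annotation, had scaled signals of 2372, 1744 and 7498 in drought against 1.65, 0.450 and 2.20 in control, where 2 arrays were well above background, a log2 ratio of 11.38 ± 0.78 (adjusted p = 2.6e-06). Sb03g029830.1, an unknown protein, had 775, 613 and 1736 in drought against 0.472, 0.936 and 1.20 in control, with 1 control array well above background (log2 10.18 ± 0.72, adjusted p = 7.4e-06). Among the 10 largest rises measured on all 6 arrays and more than 2-fold in all 3 pairs were also the unknown proteins Sb01g009730.1 and Sb04g031810.1 (log2 8.36 and 8.17), Sb03g032380.2 with no annotation (8.35), a DC1 domain protein (Sb03g036980.1, 7.80), a Tim17/Tim22/Tim23 family import protein (Sb01g037560.1, 7.92) and a small hydrophobic protein of the low temperature and salt responsive family (Sb01g038670.1, 7.98). Drought 2 was the lowest drought array for all 10. Lower bounds were largest for the LEA transcript Sb01g046490.1 above, for Sb10g028640.2 with no annotation (at least 452-fold), for an AAA-type ATPase (Sb03g001130.1, at least 333-fold), for the cytochrome P450 CYP71A25 (Sb07g000520.1, at least 246-fold) and for the unknown protein Sb08g005220.1 (at least 179-fold).

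Enzymes of compatible solute metabolism, making or cleaving proline, trehalose, inositol and raffinose-family compounds, rose in 9 of 10 cases (median log2 2.70), and none fell. P5CS2 (Sb03g039820.1), which makes the proline precursor, had 1018, 355 and 1629 in drought against 13.8, 13.2 and 17.5 in control, a 57.0-fold rise (log2 5.83 ± 0.95, adjusted p = 4.3e-05). Galactinol synthase AtGolS1 (Sb01g037090.1), the entry step to raffinose, had 4707, 959.7 and 7823 in drought against 258, 93.5 and 141 in control, 21.8-fold higher (adjusted p = 0.00085). SIP2 (Sb02g006320.1), an alpha-galactosidase-like enzyme acting on raffinose, had 5348, 4145 and 8017 in drought against 32.3, 25 and 33.3 in control (log2 7.55 ± 0.31, adjusted p = 2e-06). The spread of SIP2 between pairs was small beside its size. SIP1 (Sb03g004540.1), annotated as a galactinol-sucrose galactosyltransferase, rose 13.7-fold (adjusted p = 0.00041). Aquaporins, the water channels, rose in 10 of 13 cases by a median log2 ratio of 1.79, and none fell. The plasma membrane aquaporin PIP2B (Sb02g010790.1) had 982, 592 and 1202 in drought against 193, 281 and 270.4 in control, 3.62-fold higher (adjusted p = 0.0037). Its neighbours in gene number, Sb02g010800.1 and Sb02g010810.1, gave 3.59- and 3.83-fold, and probes for such close copies may read each other's RNA, so they may not be separate measurements. Only 2 aquaporin rises remained called without replicate 1, where the 3 PIP2B transcripts had adjusted p of 0.065, 0.0708 and 0.0567.

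**Figure D3:**
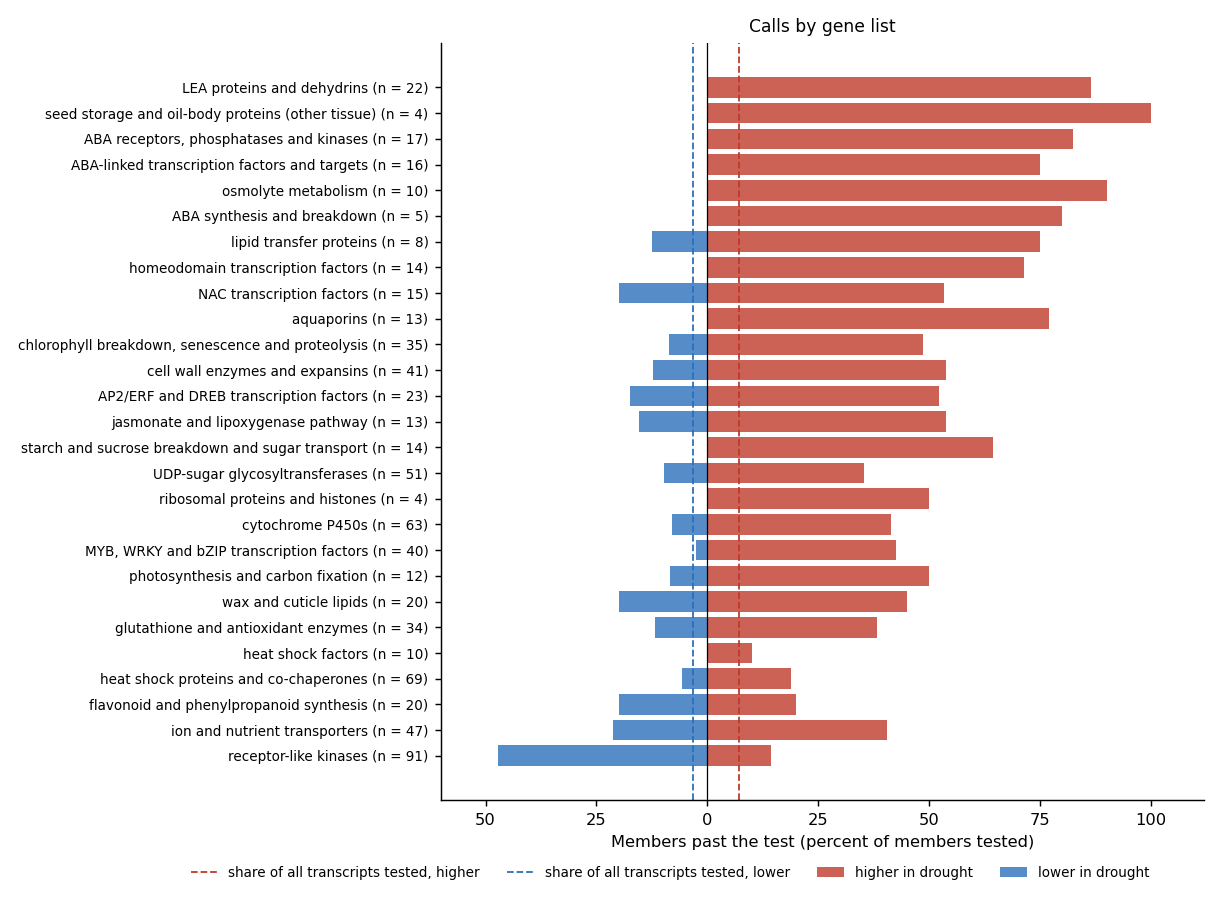
Percent of tested members of each list that were higher (right) or lower (left) in drought, ordered by median log2 ratio, with dashed lines at the shares of all transcripts tested, 7.17% and 3.29%. LEA proteins lead with 19 of 22 rises and receptor-like kinases stand at the bottom with 43 falls of 91; most names came with transcripts picked for a change against these control arrays, so the bars are not independent of the calls.

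Transcription factors of several families rose. Of 14 homeodomain factors 10 rose (71.4%, against 7.17% of all transcripts) and none fell (median log2 2.21). ATHB-7 (Sb04g033380.1), induced by ABA and drought, had 779, 407 and 1542 in drought against 3.77, 3.97 and 5.69 in control, a 179-fold rise (log2 7.48 ± 0.72, adjusted p = 3.2e-06). HB-3 (Sb02g043300.1) had 173, 146 and 432 in drought against 1.75, 0.209 and 0.563 in control, where 1 array was well above background (log2 8.55, adjusted p = 0.00024). ATHB40 (Sb01g043910.1) rose 68.9-fold (adjusted p = 0.0018) and HAT14 (Sb04g023410.1) was at least 13.1-fold higher (adjusted p = 0.00014). In the AP2/ERF family 12 of 23 rose (52.2%) and 4 fell (17.4%, against 3.29% of all transcripts). Sb09g021016.1, an AP2 domain factor, had 371, 134 and 417 in drought against 1.13, 0.451 and 0.793 in control, with 1 control array well above background (log2 8.54, adjusted p = 6.2e-06). DREB1A (Sb10g001620.1), which binds the dehydration response element, had 71.6, 24.2 and 132 in drought against 2.54, 2.62 and 3.27 in control, 21.9-fold higher (adjusted p = 0.00023), and the ethylene response element binding protein ATEBP (Sb09g017950.1) rose 23.9-fold (adjusted p = 0.00072, detected on 2 control arrays). These groups did not overlap for any factor with its values given here.

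Of 15 NAC factors, 8 rose (53.3%, against 7.17% of all transcripts) and 3 fell (20%, against 3.29%), with a median log2 ratio of 1.84. Transcripts matching anac025 rose 17.3-fold (Sb08g001940.1, adjusted p = 0.00058) and 9.41-fold (Sb02g043210.1, adjusted p = 0.0012). NAP (Sb05g001580.1), a regulator of leaf senescence, had 94.2, 55.6 and 234 in drought against 19.2, 10.2 and 12.7 in control, 7.89-fold higher (adjusted p = 0.0093). ANAC087 (Sb05g001590.1), its neighbour in gene number, rose 9.63-fold (adjusted p = 0.016). Among 40 MYB, WRKY and bZIP factors 17 rose (42.5%) and 1 fell (2.5%, near the 3.29% of all transcripts), with a median log2 ratio of 1.07. The rises were led after GBF3 by the bZIP factor GBF1 (Sb01g004080.1, at least 12.8-fold, adjusted p = 0.00087) and by MYB family factors Sb06g026500.1 (19.2-fold, adjusted p = 5.8e-05) and Sb04g003140.1 (14.3-fold, adjusted p = 0.0023). Among these families the counts leaned on replicate 1: without it 6 homeodomain, 5 AP2/ERF, 3 NAC and 10 MYB, WRKY and bZIP rises were called, and none of the falls. Without replicate 3 the AP2/ERF rises numbered 5 and the MYB, WRKY and bZIP rises 11, again with none of the falls, while without replicate 2 the MYB, WRKY and bZIP falls numbered 5. NAP had an adjusted p of 0.0711 without replicate 1, and ANAC087 0.14 without replicate 1 and 0.0874 without replicate 3.

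In the list of starch and sucrose breakdown and sugar transport, which also holds hexose transporters and a phosphofructokinase, 9 of 14 rose and none fell (median log2 1.5). The vacuolar invertase ATBETAFRUCT4 (Sb04g000620.1) had 218, 118 and 839 in drought against 4.44, 1.59 and 7.59 in control, a 73.7-fold rise (adjusted p = 0.00021). BAM1 (Sb01g019850.1), a beta-amylase, rose 15.6-fold (adjusted p = 0.00024), and the phosphofructokinase PFK2 (Sb06g019610.1) 63.9-fold (adjusted p = 0.00044, detected on 2 control arrays). The alpha-amylase AMY1 (Sb07g023010.1) varied widely, with 74.3, 1.46 and 258 in drought, and went undetected in control, at least 40.7-fold higher (adjusted p = 0.012). Drought 2 was only just detected for AMY1, and its call was lost without replicate 1 (adjusted p = 0.129) and without replicate 3 (adjusted p = 0.103). The count of rises was 4 without replicate 1.

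Chlorophyll breakdown, senescence and proteolysis gave 17 rises and 3 falls among 35 tested (median log2 1.77). NYE1 (Sb02g030830.1), the stay-green protein that starts chlorophyll breakdown, had 471, 122 and 594 in drought against 21.5, 6.73 and 11.3 in control, a 27.5-fold rise (adjusted p = 0.00023). FTSH6 (Sb10g008130.1), a chloroplast protease, had 426, 172 and 1974 in drought against 7.32, 4.04 and 19.99 in control, 62.5-fold higher (adjusted p = 5.7e-05). SAG29 (Sb04g021000.1), a sugar transporter of senescing leaves, had 56.8, 56.2 and 111 in drought against 1.14, 0.543 and 0.270 in control, where 1 array was well above background (128-fold, adjusted p = 0.00038). A subtilase (Sb02g025810.1, control well above background on 1 array) and SAG21 (Sb03g012950.1) had log2 ratios of 5.91 and 4.83 (adjusted p = 0.00078 and 0.00012). In this list the 18 members known only through the heat comparison gave 2 rises and 2 falls and a median log2 ratio of -0.92. The rises numbered 10 without replicate 1 and 10 without replicate 3, and the falls numbered 6 without replicate 2 and none without replicate 1 or 3.

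Photosynthesis transcripts did not move one way. Of 12 tested, 6 rose and 1 fell (median log2 0.98). The match to NADP-malic enzyme 1 (Sb03g034280.1) had 366, 177 and 784 in drought against 1.31, 0.481 and 1.04 in control. Only 1 control array was well above background (log2 8.74 ± 0.74, adjusted p = 5.1e-06). Arabidopsis names do not tell which malic enzyme, carboxylase or dikinase copies serve C4 carbon capture in sorghum. PPCK1 (Sb04g026490.1), the kinase of phosphoenolpyruvate carboxylase, had 36.5, 9.49 and 46.6 in drought against 2.57, 1.57 and 1.67 in control, 13.4-fold higher (adjusted p = 0.00046). The carboxylases ATPPC1 (Sb02g021090.1) and ATPPC3 (Sb04g008720.1) rose 4.98- and 3.28-fold (adjusted p = 0.0075 and 0.021). PSBR (Sb02g002830.1) had 5206, 5246 and 5886 in drought against 2376, 1658 and 1500.0 in control, 3.01-fold higher (adjusted p = 0.0014). RBCS1A (Sb05g003480.1) fell, with 454, 1116 and 265 in drought against 1183, 2404 and 2847 in control, 3.92-fold lower (adjusted p = 0.032). LHCB6 (Sb06g032690.1), a light-harvesting protein, had 93.5, 306 and 43.2 in drought against 217, 655 and 486 in control and did not pass (log2 -1.93 ± 1.35, adjusted p = 0.064). The RCA (Sb05g027880.1) and PPDK (Sb01g031660.1) transcripts had log2 ratios of 0.03 and 0.18, with adjusted p of 0.97 and 0.84. RCA had 19.6, 12.3 and 32.4 in drought against 15.6, 10.6 and 44.9 in control, but 1981, 2193 and 3459.8 in heat. PPDK was weak in both groups, between 1.27 in drought 2 and 4.595 in drought 3. Both were known only through the heat comparison, and whether other copies of these genes changed was not tested. ELIP1 (Sb02g004380.1) rose 8.21-fold (adjusted p = 0.02, detected on 1 control array). Without replicate 1 or without replicate 3 only 3 rises and no fall were called, and RBCS1A had adjusted p of 0.137 and 0.258 in those fits, ELIP1 0.119 and 0.104, ATPPC1 0.097 and 0.0677, and ATPPC3 0.133 and 0.176.

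At 28°C most heat shock proteins and co-chaperones did not pass the test. Of 69 tested, 13 rose (18.8%, against 7.17% of all transcripts) and 4 fell (5.80%, against 3.29%), with a median log2 ratio of 0.18. Known only through the heat comparison, and so absent from the study's drought transcripts, were 53 of the 69, of which 2 rose. The 17.4 kDa class III small heat shock protein (Sb04g035130.1) had 139.5, 119 and 295 in drought against 7.89, 15.9 and 10.6 in control, 15.4-fold higher (adjusted p = 0.00039). HSP18.2 rose 5.85-fold (Sb01g040000.1, adjusted p = 0.0042) and 5.08-fold (Sb01g039990.1, adjusted p = 0.011). Of the larger chaperones, HSP101 (Sb09g025900.1), which frees proteins from aggregates, had 879, 797 and 2224 in drought against 159, 285 and 299 in control, 4.86-fold higher (adjusted p = 0.0028). A 15.7 kDa small heat shock protein (Sb10g009090.1) rose 5.63-fold (adjusted p = 0.003). Of 10 heat shock factors, 9 were known only through the heat comparison, and none of these passed, a result partly set in advance. Only AT-HSFC1 (Sb04g008300.1) passed (10%, where 7.17% of all transcripts were called higher). It had 409, 253 and 1086 in drought against 3.77, 2.93 and 5.80 in control, a 121-fold rise (adjusted p = 3.2e-06). The chaperone rises numbered 4 without replicate 1 and 7 without replicate 3, and the falls none in either fit and 8 without replicate 2. HSP101 and the 15.7 kDa protein had adjusted p of 0.0584 and 0.0556 without replicate 1, and Sb01g039990.1 0.0533 without replicate 3.

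Wax and cuticle transcripts split by gene. Of 20 tested, 9 rose (45%, against 7.17% of all transcripts) and 4 fell (20%, against 3.29%). The CER1 match Sb01g019590.1, for alkane formation, had 239, 93.5 and 234 in drought against 20.9, 12.0 and 25.6 in control, 9.34-fold higher (log2 3.22 ± 0.28, adjusted p = 0.0023). CER3 (Sb04g005330.1), its partner in that step, rose 3.81-fold (adjusted p = 0.016), and KCS20 (Sb01g046290.1), a fatty acid elongase, 11.2-fold (adjusted p = 0.0012, detected on 2 control arrays). CYP94C1 (Sb09g021890.1) rose 9.61-fold (adjusted p = 0.00061). It is in the list only through its annotation as a fatty acid hydroxylase, which does not place it in wax or cuticle formation. By contrast, both KCS5 transcripts, also fatty acid elongases, fell, as given below, and the cuticular lipid exporter WBC11 (Sb02g027350.1) had 2.20, 4.07 and 1.27 in drought against 8.63, 8.89 and 9.52 in control, 4.01-fold lower (adjusted p = 0.026). Lipid transfer proteins rose in 6 of 8 cases and 1 fell (median log2 2.29). Sb06g016160.1 had 1612, 1268 and 3719 in drought against 203, 383 and 284 in control, 7.01-fold higher (adjusted p = 0.0027), and its neighbour Sb06g016170.1 rose 5.85-fold, Sb09g027600.1 7.94-fold and Sb10g027810.1 5.64-fold (adjusted p = 0.0044, 0.0063 and 0.0071). Without replicate 1 there were 3 wax rises, no wax fall and no lipid transfer rise, the adjusted p of the 4 named lipid transfer proteins being 0.0531 to 0.0867, that of CER3 0.144 and that of WBC11 0.159. Without replicate 3 there were 2 wax falls and 2 lipid transfer rises, and the adjusted p of WBC11 was 0.0916, that of Sb09g027600.1 0.0814 and that of Sb10g027810.1 0.0579. The 1 lipid transfer fall was called in neither fit.

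Cell wall enzymes and expansins gave 22 rises and 5 falls of 41 (median log2 1.58, or 1.30 with 5 undetected-in-control members at their bounds). Xylanases matching RXF12 rose 81.8-fold (Sb04g020543.1, with 444, 108 and 327 in drought against 3.45, 1.95 and 4.25 in control, adjusted p = 5.1e-05) and 43.1-fold (Sb03g006950.1, adjusted p = 6.5e-05). The expansin ATEXPB4 (Sb01g013550.1) had 709, 561 and 1322 in drought against 12.9, 17.4 and 18.4 in control, 50.3-fold higher (adjusted p = 0.00016). A family 28 glycoside hydrolase (Sb03g012280.1), a pectin-cleaving family, rose 16.5-fold (adjusted p = 0.00027). There were 13 rises and 1 fall without replicate 1, and the same numbers without replicate 3.

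Families of small-molecule metabolism and transport moved in both directions. Cytochrome P450s gave 26 rises (41.3%) and 5 falls (7.94%) of 63, against 7.17% and 3.29% of all transcripts. The rises were led by CYP71A25 and CYP71B2 (Sb05g005480.1, at least 16.4-fold higher, adjusted p = 0.0024). CYP76C2 (Sb05g021400.1) rose 18.6-fold (adjusted p = 0.030, detected on 1 control array). Its call was lost without replicate 1 (adjusted p = 0.164) and without replicate 3 (adjusted p = 0.211). CYP97B3 (Sb04g004850.1), a carotenoid hydroxylase relative, rose 15.2-fold (adjusted p = 0.00076). UDP-sugar glycosyltransferases gave 18 rises (35.3%) and 5 falls (9.80%) of 51. The rises were led by UGT85A2 (Sb04g023920.1), with 388, 78.0 and 827 in drought against 2.41, 4.23 and 1.33 in control (log2 6.94 ± 2.56, adjusted p = 0.0014). Of 47 ion and nutrient transporters 19 rose (40.4%) and 10 fell (21.3%). HKT1 (Sb06g027900.1), which retrieves sodium, had 22.5, 6.65 and 56.4 in drought and went undetected in control, at least 27.3-fold higher (adjusted p = 0.00054). The proton-dependent oligopeptide transporter Sb03g035270.1 had 65.8, 51.2 and 67.3 in drought against 4.01, 2.83 and 3.97 in control, 17.1-fold higher with the pairs almost equal (log2 4.10 ± 0.07, adjusted p = 0.00033). The transporters that fell included PHT2;1 (Sb04g024630.1), for phosphate, with 2.52, 2.51 and 0.399 in drought against 7.86, 6.55 and 11.3 in control, 6.13-fold lower (adjusted p = 0.046), and YSL3 (Sb04g033330.1), for metal chelates, 6.22-fold lower (adjusted p = 0.043), each detected on 2 of the 3 drought arrays. The sulfate transporter SULTR3;4 (Sb10g003050.1) rose 8.82-fold (adjusted p = 0.018). The 27 transporters known only through the heat comparison gave 2 rises and 7 falls, where all 1485 tested transcripts so known gave 89 and 94. All 3 families shrank without replicate 1 or without replicate 3. Without replicate 2 the P450, glycosyltransferase and transporter rises numbered 28, 26 and 18, and the falls 5, 5 and 10. Without replicate 1 there were 10 P450, 4 glycosyltransferase and 8 transporter rises and no falls, and without replicate 3 there were 11, 4 and 12 rises and 1 fall in each family. SULTR3;4, PHT2;1 and YSL3 were past the threshold in neither fit (adjusted p between 0.122 and 0.346), and PHT2;1 missed it narrowly without replicate 2 (adjusted p = 0.05002).

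Glutathione and antioxidant enzymes gave 13 rises (38.2%) and 4 falls (11.8%) of 34, against 7.17% and 3.29% of all transcripts. ATGR1 (Sb04g036870.1), glutathione reductase, had 2616, 1126 and 4615 in drought against 381, 285 and 348 in control, 7.11-fold higher (adjusted p = 0.0042). The glutathione transferases ATGSTU18 (Sb01g030790.1) and ATGSTF13 (Sb08g007300.1) rose 37.7- and 7.82-fold (adjusted p = 0.0014 and 0.0038). GSTL2 (Sb01g038900.1) rose 20.5-fold (adjusted p = 0.029, detected on 2 control arrays). Its call was lost without replicate 1 (adjusted p = 0.148) and without replicate 3 (adjusted p = 0.132). A glutaredoxin (Sb08g017160.1) went the other way, with 25.4, 187 and 12.2 in drought against 186, 355 and 270.5 in control, 6.76-fold lower (adjusted p = 0.022), and its groups overlapped in drought 2. In the jasmonate and lipoxygenase list 7 of 13 rose (53.8%) and 2 fell (15.4%). JAZ1 (Sb01g045180.1), a repressor of jasmonate signalling, rose 10.9-fold (adjusted p = 0.0013) and LOX1 (Sb03g042450.1), a lipoxygenase, 5.99-fold (adjusted p = 0.0028, detected on 2 control arrays). OPR2 (Sb10g007330.1), an oxophytodienoate reductase, had 99.9, 17.6 and 378 in drought against 12.5, 7.37 and 27.5 in control, a 6.41-fold rise with overlapping groups (adjusted p = 0.026). Flavonoid and phenylpropanoid enzymes gave 4 rises and 4 falls of 20 (20% each, median log2 -0.19). The flavonoid hydroxylase TT7 rose 75.4-fold (Sb07g003720.1, adjusted p = 5.3e-05, control well above background on 2 arrays) and 5.11-fold (Sb08g018780.1, adjusted p = 0.0039).

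Those 3 lists also depended on single pairs. Without replicate 1 there were 2 antioxidant, 2 jasmonate and 2 flavonoid rises, without replicate 3 there were 4, 3 and 3, and neither fit called any of their falls. ATGR1 had adjusted p of 0.0663 and 0.0587 in those fits, the glutaredoxin 0.155 and 0.176, and OPR2 0.169 and 0.136, while ATGSTF13 and Sb08g018780.1 had 0.0646 and 0.0669 without replicate 1. Ribosomal proteins and histones, 4 transcripts, gave 2 rises (50%, against 7.17% of all transcripts). These were SAC52 (Sb01g036330.1), a large-subunit protein, by 30.1-fold (adjusted p = 0.00069), and a ribosomal protein L1 family member (Sb09g019170.1) by 3.30-fold (adjusted p = 0.0044). The call of Sb09g019170.1 had adjusted p of 0.0845 without replicate 1 and 0.0654 without replicate 3, leaving 1 rise in each fit. Histone GAMMA-H2AX (Sb01g009820.1) and RPL7aA (Sb07g026087.1) had log2 ratios of -0.14 and 0.51 and did not pass (adjusted p = 0.65 and 0.52).

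The falls were smaller and less uniform than the rises. The largest among transcripts measured on all 6 arrays and more than 2-fold lower in all 3 pairs was the fatty acid elongase KCS5 (Sb10g009450.1), with 22.7, 37.4 and 3.86 in drought against 191, 147 and 303 in control, 13.7-fold lower (log2 -3.78 ± 2.24, adjusted p = 0.013). The other KCS5 transcript (Sb04g028910.1) had 201, 379 and 44.7 in drought against 960.1, 985 and 1430.4 in control, 7.35-fold lower (adjusted p = 0.024). CYP94D2 (Sb08g001320.1), a P450 of a fatty acid hydroxylase family, had 13.6, 23.8 and 4.12 in drought against 97.8, 100.01 and 197 in control, 11.3-fold lower (adjusted p = 0.013). The same Arabidopsis gene was the best match of a transcript that rose, Sb01g042460.1, with 329, 147 and 399 in drought against 20.4, 16.3 and 26.3 in control, 13-fold higher (adjusted p = 8.4e-05). The others of the 10 largest falls that also passed the 2-fold criterion in all 3 pairs were a 33 kDa secretory protein (Sb01g039360.1, 9.08-fold lower, adjusted p = 0.0498), 2 receptor kinases described below, the unknown proteins Sb09g023180.1, Sb02g041170.1 and Sb05g022280.1 (9.11-, 7.84- and 7.64-fold lower), and Sb09g030280.1 without annotation (6.74-fold lower). Drought 3 was the lowest array for all 10, and in none did the groups overlap. None of the 10 kept its call without replicate 1 (adjusted p from 0.0955 for Sb10g009450.1 to 0.161 for Sb05g022280.1). Without replicate 3 only the falls of Sb10g009450.1 and Sb09g030280.1 were still called, and the other 8 had adjusted p from 0.0603 for Sb09g023180.1 to 0.319 for Sb02g041170.1. Drought arrays lacked a signal well above background altogether for 18 of the 714 falls. For these the largest lower bounds were 5.32-fold for a leucine-rich repeat kinase (Sb07g027920.1), 4.14-fold for a scarecrow-like factor (Sb01g015180.1), 3.05-fold for a receptor lectin kinase (Sb10g011160.1), 2.78-fold for a glycosyltransferase (Sb02g026040.1) and 2.72-fold for an auxin-responsive protein (Sb02g031760.1), all 5 again short of the threshold without replicate 1 (adjusted p from 0.101 to 0.177) and, but for the scarecrow-like factor, without replicate 3 (0.0819 to 0.222).

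Receptor-like kinases, membrane proteins that sense peptides, cell wall fragments and microbial molecules, were the list in which falls outnumbered rises. Of 91 tested, 43 fell (47.3%, against 3.29% of all transcripts) and 13 rose, with a median log2 ratio of -1.42. Among the 45 members known only through the heat comparison, 15 fell and none rose, and their median was -1.15. These 45 were absent from the study's drought transcripts and had been picked for a change in heat against the same control arrays. Of all 1485 tested transcripts so known, 94 fell and 89 rose, with a median log2 ratio of -0.14. In all, 71 of the 91 had a ratio below 1. The light repressible receptor kinase Sb09g026180.1 had 5.30, 5.13 and 1.15 in drought against 42.7, 17 and 23.4 in control, 8.16-fold lower (log2 -3.03 ± 1.31, adjusted p = 0.0095). WAK3 (Sb03g022080.1), a wall-associated kinase, had 7.81, 9.92 and 1.38 in drought against 35.6, 31.0 and 30.7 in control, 6.82-fold lower (adjusted p = 0.027). PSKR1 (Sb04g001210.1), the receptor of the growth peptide phytosulfokine, had 6.60, 24 and 2.36 in drought against 28.1, 46 and 63.5 in control, 6.03-fold lower (adjusted p = 0.039). For all 3, the drought arrays lay below every control array, and drought 3 was the lowest. The receptor lectin kinase Sb02g009170.1 did the opposite, with 16, 6.41 and 35.9 in drought against 0.841, 0.262 and 1.10 in control and 1 control array well above background, 24.8-fold higher (adjusted p = 0.0028). A leucine-rich repeat kinase (Sb09g026090.1) rose 7.43-fold (adjusted p = 0.042), and the receptor-like protein AtRLP7 (Sb03g005090.1) was at least 7.12-fold higher (adjusted p = 0.03). The number of falls rested on individual pairs: 2 without replicate 1, 5 without replicate 3 and 40 without replicate 2. Rises numbered 2 without replicate 1 and 3 without replicate 3. The falls named here had adjusted p of 0.0989, 0.137 and 0.161 without replicate 1 and 0.0885, 0.235 and 0.201 without replicate 3, in the order given, and the calls of Sb09g026090.1 and AtRLP7 were lost in both fits as well (0.195 and 0.147 without replicate 1, 0.32 and 0.0662 without replicate 3).

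**Figure D4:**
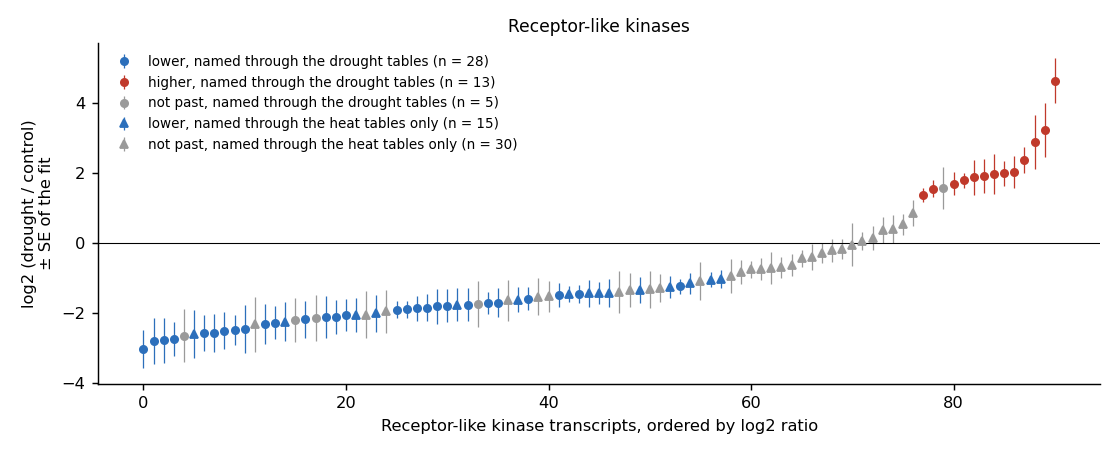
Log2 ratio of drought over control, with the standard error of the limma fit, for the 91 receptor-like kinase transcripts ordered by ratio; colour marks the call and shape whether the name came with the study's drought or heat transcripts. Most points lie below 0, among them 15 falls known only through the heat comparison, and the 13 rises form a short tail at the right.

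Water was withheld in a second pair of groups, and the drought response was followed there. The combined and heat arrays, both from plants held at 50°C, differ in watering as drought and control do. They share no array with the drought comparison, although replicate numbers share slides, and the combined arrays were dimmer (median signal 222 to 298) than the heat arrays (365 to 434). Both comparisons came from the same limma fit, which used the same spread for a transcript at both temperatures. A transcript picked at 28°C for a small spread was therefore easier to call at 50°C, so the counts called are not an independent check. Of the 1557 transcripts that rose in drought, 1491 (95.8%) were also higher in combined than in heat leaves, where 49.4% of all transcripts were, and 821 (52.7%) were called higher, against 7.28% of all. Only 1 was called lower. Of the 714 falls, 621 (87.0%) were lower in combined than in heat leaves, where 50.6% of all transcripts were, and 125 (17.5%) were called lower, against 4.76% of all, while 6 were called higher. Median ratios at 50°C were 1.29 for the rises and -0.66 for the falls. Since these transcripts had been selected by the size and test of their ratio at 28°C, a smaller ratio in a second comparison is no evidence of a weaker effect there. The rises called at both temperatures numbered 63 without replicate 1 and 414 without replicate 3, and the falls none and 27.

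By list, 17 of the 19 LEA rises and 13 of the 14 rises in the list with phosphatases and kinases were also called higher in combined than in heat leaves. So were 11 of the 12 ABA-linked rises and all 4 seed marker rises, against 2 of the 10 aquaporin rises and 4 of the 13 chaperone rises. The share over all drought rises was 52.7%. The lists also differed in the size of their ratios at 28°C, with a median log2 of 5.74 for LEA and 1.79 for aquaporin members. Of the 43 receptor-like kinase falls 5 were called lower, where 17.5% of all drought falls were. The LEA transcript Sb09g027110.1 had a log2 ratio of 9.61 at 50°C beside 9.43 at 28°C. AtGolS1 had 0.79 (adjusted p = 0.28) beside 4.45, DREB1A 0.78 (adjusted p = 0.19) beside 4.46, and PPCK1 0.33 (adjusted p = 0.56) beside 3.74. The test of the difference between the temperatures itself did not pass for these 3 (adjusted p = 0.151, 0.081 and 0.084). Nor did it pass for the 3 PIP2B aquaporins (adjusted p = 0.174 for each). It passed for only 5 of the 21705 transcripts (0.023%) in limma, with 3559 at an unadjusted p under 0.05. They included 3 of the drought rises: the small hydrophobic protein Sb01g038670.1, SIP2, and ATC (Sb05g003200.1), a relative of the flowering-time protein TERMINAL FLOWER 1, with 139, 136 and 583 in drought against 0.696, 0.823 and 2.20 in control. Each was called higher with water withdrawal at both temperatures, but their level in watered leaves was itself higher at 50°C than at 28°C. Heat minus control was 7.76 for Sb01g038670.1, 5.39 for ATC and 2.99 for SIP2 on the log2 scale (adjusted p = 1.4e-05, 3.4e-05 and 5.2e-05). No more than 1 transcript passed this test when any replicate number was left out.

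**Figure D5:**
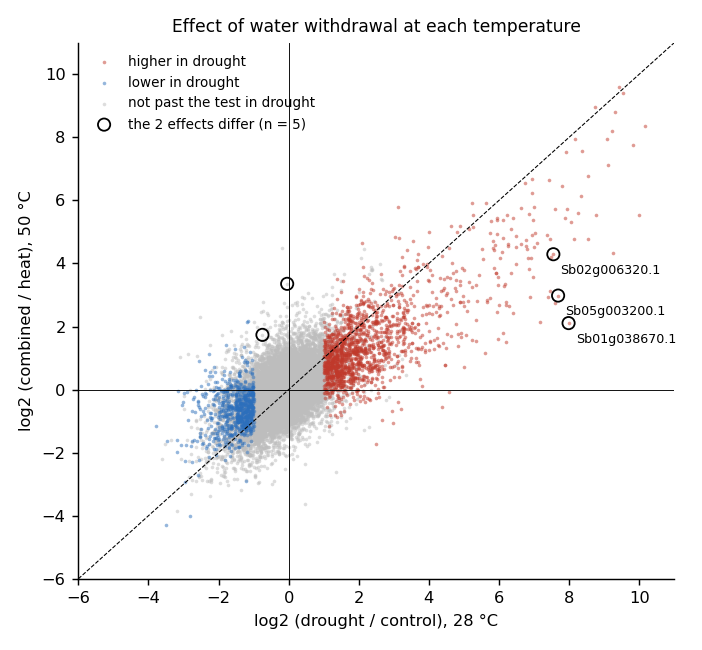
Log2 ratio of drought over control at 28°C (x axis) and of combined over heat at 50°C (y axis) for the 21705 transcripts, coloured by their call in drought, with a dashed line where both are equal and circles around the 5 transcripts whose ratios differed. Most red points (higher in drought) lie above 0, and most blue points (lower in drought) lie below 0.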

How the data were processed

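Leaf RNA was hybridised in 1 colour to custom Agilent arrays of 60-base sorghum probes. The authors deposited spot intensities from Agilent Feature Extraction and a table of normalized log2 values made in GeneSpring, which served as an alternative. Here, the processed intensity was taken as log2 minus each array's 75th percentile over non-control spots; flagged outlier spots were left out, spots of a probe were averaged, and the brightest of several probes stood for a transcript (108 transcripts). limma 3.58.1 in R 4.3.3 was fitted to all 12 arrays with 4 group means and the replicate number as a block, with Benjamini-Hochberg adjustment over 21705 transcripts. The script was tested on simulated data; tables were handled in Python 3.11.15. Replicate numbers mark slides, and samples with the same number deviated together (r from 0.0427 to 0.624 in the 18 pairings, 0.56, 0.52 and 0.23 for drought with control). The methods call the replicates biological. The p-values measure the spread between pools over all 4 groups, heat and combined included, and not that of the drought and control pools alone.

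Array identifiers were joined to sorghum transcript names and Arabidopsis annotations by matching the deposited table's ratios with the per-replicate ratios in the study's supplementary drought and heat tables, used only as a key and matched within 2e-05 on the log2 scale. This named 2671 of the transcripts tested, with 1014 rises and 255 falls among them; the heat tables were available in part. Members and the 27 annotation-based lists were chosen with earlier results of these data known. Named were the 10 largest rises and falls past both criteria and well above background on all 6 arrays, the 5 largest bounds each way, up to 4 members of each list with the largest ratios past limma, every member of lists of up to 5, and leaf and seed markers. Not every named list member is described above. Another 14 were named after their values were seen: OST1, ABF2, NYE1, PSKR1, WBC11, YSL3, PHT2;1, HSP101, the CYP94D2 match that rose, the glutaredoxin, SULTR3;4, CER3, Sb01g046000.1 and Sb03g029830.1. "At least N-fold" sets the brighter group's mean log2 value against, per dim array, the higher of its lowest signal well above background and the probe's own. The background, scaling, filter, source, block, arrays fitted, replicates and thresholds were varied. Normexp used the median spot signal, the mean not being used here, and a planned motif count in promoters was not run.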

Additional observations from a re-analysis of the deposited data

Results flagged for a closer look

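In 5 transcripts the effect of withholding water differed between 50°C and 28°C by limma's test of the difference itself (adjusted over 21705 transcripts). The 28°C effect exceeded the 50°C effect in 3 of them. The small hydrophobic protein Sb01g038670.1 differed by a log2 of -5.88 (adjusted p = 0.0481), since combined minus heat was 2.11 and drought minus control 7.98. ATC (Sb05g003200.1) differed by -4.71 (adjusted p = 0.0492), with 2.98 for combined minus heat and 7.69 for drought minus control. SIP2 (Sb02g006320.1) differed by -3.26 (adjusted p = 0.0368), with 4.29 and 7.55 in the same order. The watered leaves of these 3 already differed with temperature, heat minus control being 7.76, 5.39 and 2.99 on the log2 scale for Sb01g038670.1, ATC and SIP2. In combined leaves Sb01g038670.1 had 14081, 8703 and 7953, against 2162, 2770.4 and 2032 in heat leaves. In the remaining pair the 50°C effect was the higher one. The transferase Sb03g040180.1 differed by 3.4 (adjusted p = 0.0368). It had 251, 207 and 369.9 in drought against 253, 179.9 and 462 in control, and 411, 394 and 474 in combined against 30.9, 35.9 and 64.8 in heat, a combined minus heat of 3.35. A transcript without a joined name or annotation differed by 2.48 (adjusted p = 0.0412), with a log2 ratio of 1.73 for combined minus heat and -0.75 for drought minus control. The tests sat close to the threshold, and with replicate 1, 2 or 3 left out no more than 1 transcript passed.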

How the results depend on the processing

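The 1557 rises and 714 falls were most affected by how the spread was estimated. Without the replicate block there were 972 rises and 198 falls, and a fit of the 6 drought and control arrays alone gave 348 and 16. Falls dropped to 397 under normexp background correction and to 400 with no filter on dim transcripts, where 28581 transcripts were adjusted over. Leaving out 1 replicate gave 405 to 1883 rises and 18 to 1293 falls. By the fold criterion, 3-fold left 507 rises and 29 falls, 1.5-fold gave 1654 and 1139, normexp 98 falls, and requiring all 6 arrays well above background 142 falls; without 1 replicate there were 983 to 1883 rises and 237 to 1285 falls. The rises also called between combined and heat, 821, became 445 without the block and 63 to 912 without 1 replicate; the 125 falls became 25 and 0 to 135; the 5 transcripts whose water effects differed became 0 and 0 to 1, the last range with replicates left out after the data were seen. Rises made up 68.6% of calls, 74.4% with normexp, 61.6% with median scaling and 68.4% with quantile normalization, and the median of all transcripts stayed between -0.09 and -0.14. No named transcript changed direction. Of 121 named rises, 74 kept their call in every alternative and 43 lost it in the 6-array fit. Of 21 named falls none did: 20 were lost in that fit, 13 without the block and 9 with normexp. Receptor-like kinase falls numbered 20 with normexp, 18 without the block and 2 in the 6-array fit, where rises of that list numbered 3, so that falls no longer outnumbered them, nor without replicate 1, with 2 of each; cell wall rises 9 with normexp. The cause of these changes was not tested.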
